A study of Mus musculus with 5 samples.

Results

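Ephrins and their Eph receptors were described in epithelial tumour cells of mouse prostates with and without a deletion of Pygo2. The set held 10 genes, the ephrin-A ligands Efna1, Efna3, Efna4 and Efna5, the ephrin-B ligands Efnb1 and Efnb2, the receptors Epha1 and Epha2, and the receptors Ephb3 and Ephb4. Members were taken by gene symbol, as every probe set (a group of short probes that together read 1 transcript) whose only symbol in the platform annotation is 1 of these genes. This gave 10 of the 18193 genes with such a probe set, and 20 of the 45037 probe sets on the array, 14 for ligands and 6 for receptors, and 0 further probe sets paired a member with another gene. The genes were chosen by symbol with their log2 signals and their nTKO minus nDKO differences in these 5 arrays already known, so both are given as a description, with no test of the members' own differences.

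Affymetrix expression arrays were hybridised with RNA of 5 C57BL/6 mice, 1 array per mouse. In nTKO mice, which carry floxed Pygo2 together with the floxed alleles of the other genotype, the ages were 31.43 weeks (nTKO 1) and 16 weeks (nTKO 2). In nDKO mice the ages were 15.86 weeks (nDKO 1), 10.71 weeks (nDKO 2) and 10.71 weeks (nDKO 3). Both genotypes share floxed alleles that include Smad4 and the Probasin driver, which is active in prostate epithelium, and no array of a mouse without these deletions was used, so all values compare 1 tumour genotype with another. Tumour cells were enriched with beads against EpCAM before RNA extraction. Values are log2 signals, so a difference of 1 is a doubling.

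Ephrins are cell surface proteins that act as ligands for Eph receptors on neighbouring cells. The A-class ligands are held by a lipid anchor and mainly bind EphA receptors, while the B-class ligands cross the membrane and mainly bind EphB receptors. The receptors are tyrosine kinases, signalling can run into both of the touching cells, and in epithelia the system helps keep cell populations sorted and boundaries sharp. EphB receptors of the intestinal epithelium, Ephb3 among them, are known targets of Wnt signalling through beta-catenin and TCF factors, and Pygo2 is a co-activator in that complex.

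The proximal promoters of 4 members are shown because they belong to the 2 ligands with the largest differences of the set, Efna4 and Efna1, and to the receptors Ephb3 and Epha2. Each is the 250 bases before the most upstream start site in RefSeq (build GRCm38.p6), written 5′ to 3′ on the strand of the gene, and capitals mark CTTTGA or CTTTGT on either strand, core words bound by TCF factors. The windows are chr3:89338029-89338278 (minus strand) for Efna4, chr3:89280952-89281201 (minus) for Efna1, chr4:141300971-141301220 (plus) for Epha2 and chr16:21204545-21204794 (plus) for Ephb3.
Efna4: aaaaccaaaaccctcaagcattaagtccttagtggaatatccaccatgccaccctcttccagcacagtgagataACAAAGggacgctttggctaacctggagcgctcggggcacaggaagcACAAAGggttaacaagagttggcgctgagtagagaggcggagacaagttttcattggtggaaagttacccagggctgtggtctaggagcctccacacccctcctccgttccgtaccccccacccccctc
Efna1: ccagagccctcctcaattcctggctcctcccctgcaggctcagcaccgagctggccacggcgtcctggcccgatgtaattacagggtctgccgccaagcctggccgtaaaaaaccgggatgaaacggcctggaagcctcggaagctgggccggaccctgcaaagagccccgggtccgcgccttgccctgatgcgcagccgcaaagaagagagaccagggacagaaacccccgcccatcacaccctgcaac
Epha2: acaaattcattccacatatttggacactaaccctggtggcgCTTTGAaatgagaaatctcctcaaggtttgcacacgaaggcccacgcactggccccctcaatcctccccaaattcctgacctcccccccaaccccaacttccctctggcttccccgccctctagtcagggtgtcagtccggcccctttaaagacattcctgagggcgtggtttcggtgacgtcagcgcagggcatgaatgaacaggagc
Ephb3: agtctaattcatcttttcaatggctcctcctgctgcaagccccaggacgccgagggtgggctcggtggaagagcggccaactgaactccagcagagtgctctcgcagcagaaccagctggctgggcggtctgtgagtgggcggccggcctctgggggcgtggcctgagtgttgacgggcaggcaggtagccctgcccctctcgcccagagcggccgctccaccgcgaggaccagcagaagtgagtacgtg
Promoters were found for all 10 members. The words were found in 2 of them, with 2 matches in Efna4, at 176 and 129 bases before the start, and 1 match in Epha2, at 209 bases before it. At least 1 match was found in 27.8% of the 27025 promoters of this length, 1 per gene. The Efna4 window held 54.4% G and C and 7 CpG pairs, with 55.6% and 9 for Epha2, 64.8% and 16 for Efna1 and 65.6% and 16 for Ephb3, and the medians over all promoters were 52% and 6. A match of 6 letters is no evidence of binding, and a window without one says only that these letters are not in it.

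Pygo2, the gene deleted in nTKO mice, measured 7.30 and 6.35 in nTKO cells and 8.65, 8.62 and 8.72 in nDKO cells. Smad4, floxed in both genotypes, measured 9.76 and 10.37 in nTKO cells and 9.63, 9.88 and 9.88 in nDKO cells, and whether either probe set reads deleted exons was not analysed here. The epithelial markers Epcam, Cdh1, Krt8, Krt18 and Cldn7 were bright in all mice, with array medians of the list between 12.59 and 13.04. Arrays nTKO 1 and nDKO 1 stood apart from the other 3 in the median of the squamous markers, at 9.14 and 5.46 in nTKO 1 and nTKO 2, and 10.85, 5.54 and 6.01 in nDKO 1, nDKO 2 and nDKO 3. Krt10, Krt1, Krt13 and Ivl were high in both. Lor and Sprr3 stood out in nDKO 1 only and Dsg1a in nTKO 1 only, and Sprr1a was 11.17 in nTKO 1 and 11.47 in nTKO 2. Markers of fibroblasts (4.25 in both nTKO mice, 4.11 to 4.23 in nDKO) and T cells (4.24 and 4.09, against 3.94 to 4.05 in nDKO) had dim list medians without overlap of the genotypes, and list medians of basal, luminal, macrophage, neutrophil, endothelial and seminal vesicle markers overlapped. Gene by gene, only Col3a1 and Cd2 of the fibroblast and T cell lists separated the genotypes, both below the median of every array. The fibroblast gene Dcn was bright, at 6.41 and 9.52 in nTKO cells and 7.87, 9.39 and 9.03 in nDKO cells, a difference of -0.80. Only C1qa of the macrophage list separated the genotypes, with a difference of -0.94. It measured 7.46 and 7.27 in nTKO cells and 8.20, 7.64 and 9.09 in nDKO cells. Tek of the endothelial list separated them with a difference of 0.30, but lay below the median of every array. Basal list medians were also highest in nTKO 1 and nDKO 1, at 11.90 and 9.96 in nTKO 1 and nTKO 2, and 12.89, 10.87 and 10.58 in nDKO 1, nDKO 2 and nDKO 3. Krt5, Krt14 and Trp63 were highest in these 2 mice, but Itgb4 was lowest in nTKO 1, at 8.04. Krt15 was lower in both nTKO mice, at 13.29 and 12.77, against 13.68, 13.41 and 13.52 in nDKO cells. Seminal vesicle markers were lowest in nDKO 1, with list medians of 12.37 and 12.77 in nTKO cells and 8.86, 12.57 and 13.61 in nDKO cells. Neutrophil list medians were 10.29 and 7.12 in nTKO 1 and nTKO 2, and 8.44, 7.93 and 8.57 in nDKO cells. In the limma fit over the whole table, 0 of 45037 probe sets had an adjusted p under 0.05 (0%, smallest 0.799) and 1710 had an unadjusted p under 0.05 (3.8%). Pygo2, the deleted gene, was not called either, at a difference of -1.84, so nothing is read about the members from the 0 calls. The age of the mice is partly confounded with genotype, and a difference in the share of a cell type cannot be told apart from a difference in RNA per cell.

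Efna4, an A-class ligand, had nTKO values below all nDKO values. Its single probe set measured 6.63 and 6.97 in nTKO cells, against 8.02, 7.86 and 7.42 in nDKO cells. The groups were 0.45 apart at their closest, and the mouse-to-mouse differences ran between -1.39 and -0.45. The mean difference was -0.97 (SE 0.23, limma, n = 2 and 3), which leaves 51.2% of the nDKO signal. Of the 45037 probe sets on the array, 88 had a lower difference. Efna4 was picked with this difference known, so nothing is read from that rank.

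Efna1, an A-class ligand known to bind Epha2, was higher in nTKO cells by its brighter probe set, with 9.81 and 9.67 in nTKO cells and 9.06, 9.14 and 8.89 in nDKO cells. Every nTKO value lay above every nDKO value, with a gap of 0.53 between the groups. The difference was 0.71 (SE 0.10), a ratio of 1.64. The other probe set of Efna1 measured 8.40 and 8.81 in nTKO cells and 8.30, 8.55 and 8.10 in nDKO cells, a difference of 0.29 (SE 0.20) with overlapping groups. It was 0.08 without nTKO 2, while the brighter one gave 0.78 there.

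Efna5, an A-class ligand that can also bind Ephb2, measured 7.24 and 7.60 in nTKO cells and 7.14, 6.98 and 7.17 in nDKO cells. The groups were separated by 0.07 only. The difference was 0.32 (SE 0.14), and it was 0.14 without nTKO 2 and 0.50 without nTKO 1. A second probe set lay below the median of every array, at 3.53 in both nTKO mice and between 3.33 and 3.61 in nDKO cells.

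Efna3, the ligand encoded between Efna1 and Efna4, had means of 6.46 (SD 1.10) in nTKO and 6.43 (SD 0.55) in nDKO cells, with its mice far apart within each genotype. Its brighter probe set measured 7.24 and 5.68 in nTKO cells and 6.96, 6.45 and 5.87 in nDKO cells. The other probe set had the same order at its ends, with 6.01 and 4.72 in nTKO cells and 5.90, 5.17 and 5.20 in nDKO cells. Both were highest in nTKO 1 and lowest in nTKO 2. The difference of the brighter one was 0.81 without nTKO 2 and -0.75 without nTKO 1, and it was -0.24 without nDKO 3 and -1.32 with log2 age as a covariate, so its sign did not hold.

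**Figure D1:**
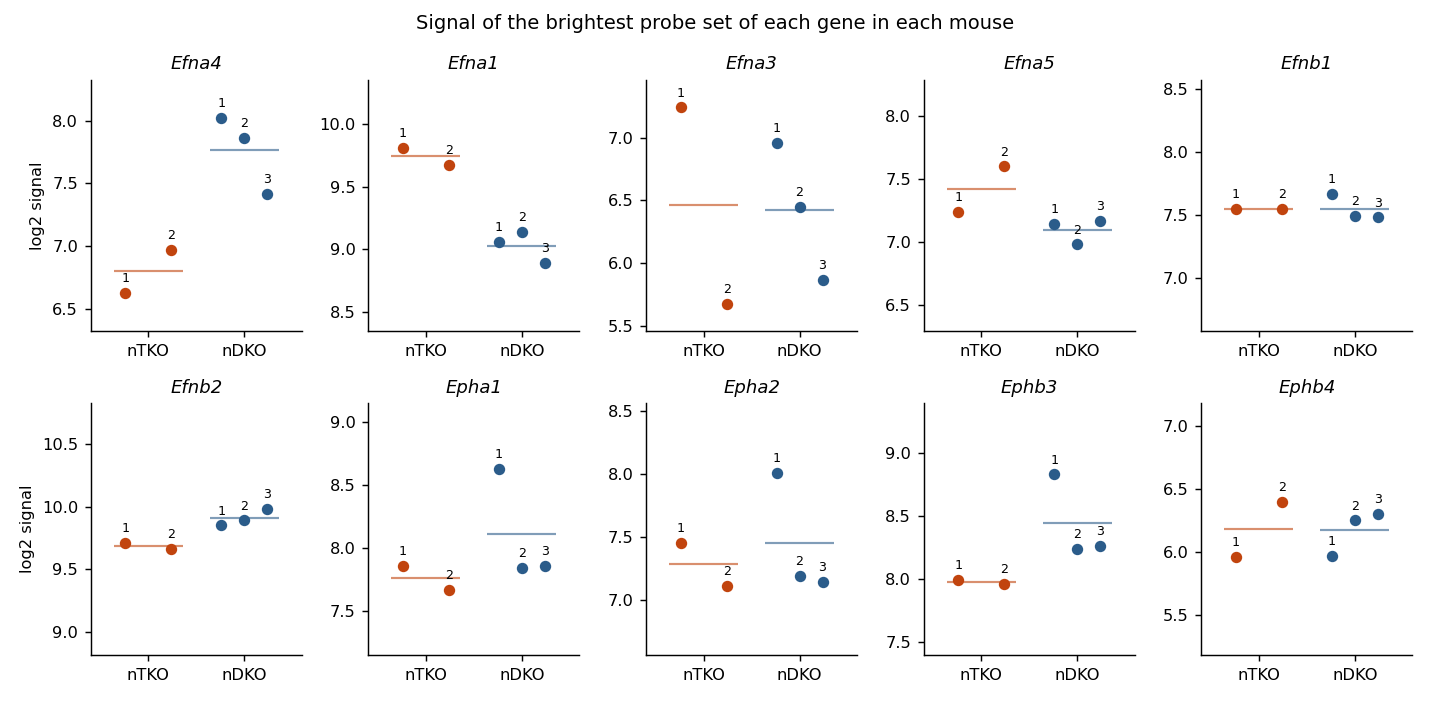
Log2 signal of the brightest probe set of each gene (y axis, 2 log2 units in every panel) in nTKO and nDKO mice. Points are mice, labelled with their number, and lines are group means. Efna4 lies lower and Efna1 higher in nTKO with no overlap of the genotypes, while Efna3 spans 1.56 log2 units without separating the genotypes.

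Among the B-class ligands, Efnb2, which marks arterial endothelium and is also made by epithelial cells, measured 9.71 and 9.66 in nTKO cells and 9.85, 9.89 and 9.98 in nDKO cells by its brightest probe set. The groups did not overlap, and the difference was -0.22 (SE 0.07), leaving 85.8% of the nDKO signal. Of its other 3 probe sets, all with overlapping or touching groups, 2 had differences of -0.09 and -0.12, and the third, below every array median, had 0.02. Endothelial markers were dim, with 7 of 9 below the median of every array and list medians of 3.71 and 3.47 in nTKO and 3.50 in each nDKO mouse.

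Efnb1, the other B-class ligand, measured 7.55 in both nTKO mice and 7.67, 7.49 and 7.48 in nDKO cells by its brightest probe set, a difference of 0.003 (SE 0.08). A second probe set gave 6.39 and 6.55 in nTKO cells against 6.72, 6.85 and 6.58 in nDKO cells, a difference of -0.25 (SE 0.11). The groups of the second were only 0.03 apart, and the third gave -0.03 with overlapping groups. The 3 probe sets of Efnb1 did not give 1 direction.

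Among the receptors, Ephb3 also had both nTKO values below all nDKO values. Its probe set measured 7.99 and 7.96 in nTKO cells and 8.83, 8.24 and 8.26 in nDKO cells. Both nTKO values were alike, and nDKO 1 stood above the other nDKO mice. The difference was -0.47 (SE 0.22), leaving 72.3% of the nDKO signal, and it was -0.27 without nDKO 1.

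Epha1 and Epha2 shared the high value in nDKO 1 but did not separate the genotypes. Epha1 measured 7.86 and 7.67 in nTKO cells and 8.63, 7.84 and 7.86 in nDKO cells by its brightest probe set. The difference was -0.34 (SE 0.29), and without nDKO 1 it was -0.09. Epha2, a receptor widely studied in epithelial tumours, measured 7.45 and 7.11 in nTKO cells and 8.01, 7.19 and 7.14 in nDKO cells. Its difference of -0.17 (SE 0.33) became 0.12 without nDKO 1. The 2 other probe sets of Epha1 lay below every array median, with differences of -0.16 and 0.09.

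Ephb4, the receptor of Efnb2 on venous endothelium, did not separate the genotypes either. It measured 5.96 and 6.40 in nTKO cells and 5.97, 6.25 and 6.30 in nDKO cells. The lowest values were those of nTKO 1 and nDKO 1, the opposite of Epha2. The difference was 0.01 (SE 0.18), from -0.21 without nTKO 2 to 0.23 without nTKO 1.

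**Figure D2:**
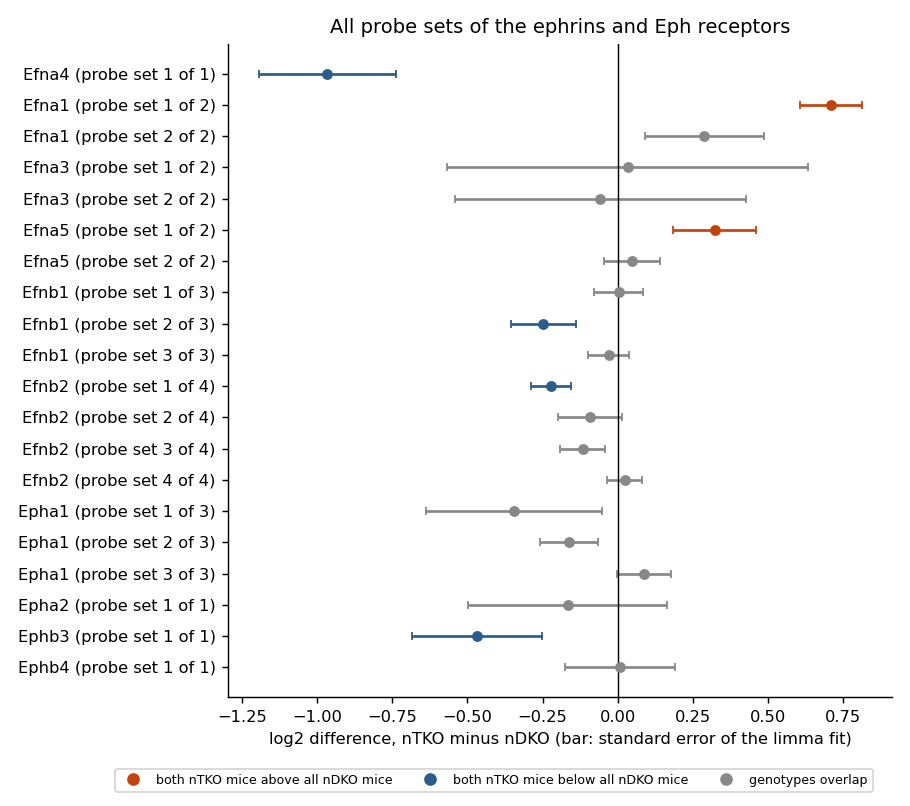
Difference in log2 signal, nTKO minus nDKO (x axis), for all 20 probe sets, numbered within a gene by falling brightness. Bars are standard errors of the limma fit. Colours mark probe sets whose genotypes do not overlap, 2 higher and 4 lower in nTKO, and Efna4 at -0.97 and Efna1 at 0.71 lie farthest from 0.

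Over the set, the genotypes did not overlap for 6 of 20 probe sets, where this held for 12.2% of all probe sets and 15.3% of those at or above the median level. By direction, 2 were higher in nTKO (7.02% of all) and 4 lower (5.17% of all). Since the members were picked with this comparison known, nothing is read from these counts. The median difference was -0.04 over the 20 probe sets and 0.02 over the whole table, and 9 of the 20 differed by less than 0.1. Efna4 and Efna1, ligands of 1 class, lay on opposite sides.

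Efna1, Efna3 and Efna4 follow one another on mouse chromosome 3, on 1 side of Pygo2 and with 0 protein-coding genes between them, in the RefSeq gene table of GRCm38.p6. Between Efna4 and Pygo2 the table lists 9 genes, 8 of them protein coding, and between Efna1 and Pygo2 it lists 15. Of the 25 listed genes on each side of Pygo2, 35 in all were measured. The genotypes did not overlap for 4 of these 35 genes (11.4%, against 12.8% of all genes by their brightest probe set), which were Efna4, Efna1, the non-coding Gm15417 and the actin-binding tropomyosin Tpm3. Leaving out the 3 ephrins, it was 2 of 32 (6.25%).

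The measured genes between Efna4 and Pygo2 did not share the lower signal of Efna4. Of them, Dcst1 lay below the median of every array, where a decrease may not show. Adam15, a membrane protease next to Efna4, measured 9.06 and 8.93 in nTKO cells and 8.76, 9.01 and 8.95 in nDKO cells. Shc1, an adaptor protein next to Pygo2, measured 8.73 and 8.79 in nTKO cells and 8.69, 8.73 and 8.76 in nDKO cells. Gm15417 was higher in both nTKO mice (6.86 and 6.83, against 6.40, 6.52 and 6.44 in nDKO cells, difference 0.39). Dcst2, also between them, and Pbxip1, the next gene on the far side of Pygo2, were each at 0.30 with overlapping groups. The mucin Muc1, beyond Efna1, had a difference of -0.71 (SE 0.41), also with overlap. The chromosomal neighbourhood of the deleted gene and the lost activity of Pygo2 cannot be told apart as sources of a difference in these genes, since every nTKO mouse carries both.

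**Figure D3:**
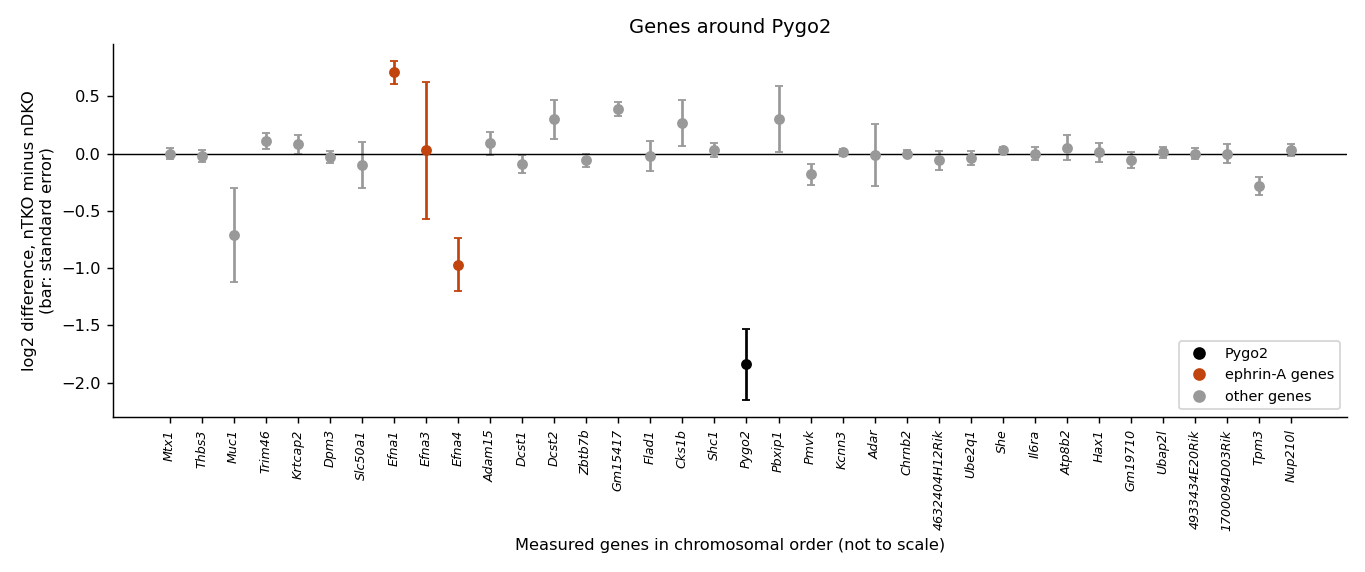
Difference in log2 signal, nTKO minus nDKO (y axis), of the 35 measured neighbours of Pygo2 and Pygo2 itself, in chromosomal order and not to scale. Points are the brightest probe set of each gene and bars standard errors. Pygo2 is at -1.84 and Efna4 at -0.97, and the measured genes between them lie between -0.09 and 0.39.

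The rest of the family, fixed as a list of 12 ephrins and Eph receptors outside the set, had 11 measured genes. Of these, 0 passed the test in either direction by limma (0 at an unadjusted p under 0.05), and the median difference was 0.02 with 8 genes higher and 3 lower on average. By the brightest probe set of each gene, the genotypes did not overlap for 1 of 11 (9.09%, against 12.8% of all genes), Efnb3, at 5.81 and 5.68 in nTKO cells and 5.64, 5.66 and 5.58 in nDKO cells. Epha4, a receptor that binds ligands of both classes, had 4 of 5 probe sets with a lower mean in nTKO cells. In its brightest it measured 7.66 in both nTKO mice and 8.26, 7.45 and 7.47 in nDKO cells, again highest in nDKO 1. The genotypes did not overlap for 2 of its other probe sets, both lower in nTKO cells, with differences of -0.13 and -0.28. Over all 25 probe sets of these 11 genes it was 3 (12%, against 12.2% of the whole table). Epha7 (0.32), Epha5 (0.19) and Epha3 (-0.13) had dim probe sets, below the median of every array.

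Signalling partners of the receptors, 30 of 31 listed genes measured, also gave 0 calls in either direction (0 at an unadjusted limma p under 0.05). Their median difference was 0.03, with 16 higher, 11 lower and 3 at 0 on average after rounding. The genotypes did not overlap for 3 of the 30 genes (10%, against 12.8% of all genes), among them the adaptor Nck2 (0.30) on the higher side and the Eph-binding adaptor Anks1 (-0.13) on the lower side. Adam10, the protease that sheds ephrins, differed by -0.07.

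The signalling partners Tiam1, Vav3 and Chn2 varied between mice far more than between genotypes. Tiam1, a guanine nucleotide exchange factor, measured 8.51 and 6.26 in nTKO cells and 9.02, 6.17 and 6.47 in nDKO cells. Vav3, another exchange factor, measured 8.95 and 8.05 in nTKO cells and 9.61, 8.05 and 8.26 in nDKO cells. Chn2, a chimaerin, measured 5.36 and 4.12 in nTKO cells and 6.73, 4.31 and 4.17 in nDKO cells. All 3 were highest in nDKO 1 and next highest in nTKO 1, the order in which these arrays led in the squamous and basal medians, and nDKO 1 had the lowest seminal vesicle median. Efna3 was high in the same 2 mice, while Epha1 and Ephb3 were high in nDKO 1 only. The part of squamous, basal and seminal vesicle cells in these values was not tested.

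**Figure D4:**
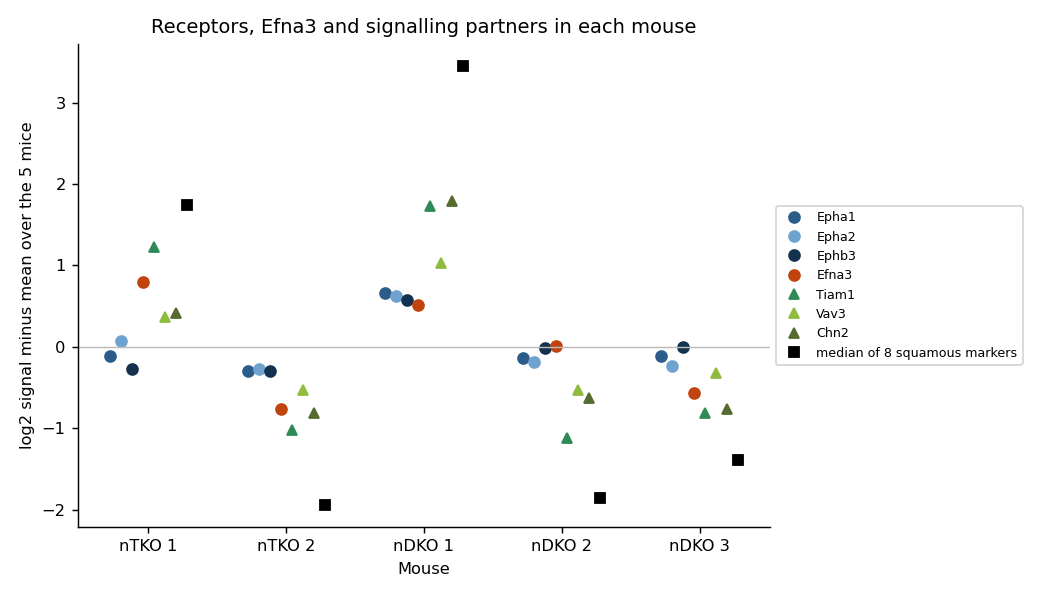
Log2 signal minus its mean over the 5 mice (y axis) for the receptors Epha1, Epha2 and Ephb3 and the ligand Efna3 (circles), the partners Tiam1, Vav3 and Chn2 (triangles) and the median of 8 squamous markers (squares), by mouse (x axis). The partners and Efna3 are high in nTKO 1 and nDKO 1, and the 3 receptors are highest in nDKO 1.

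Over the brightest probe sets of the 10 members, nDKO 1 was the highest array for 5 genes and the lowest for 0. Array nTKO 2 was the lowest for 5 genes and the highest for 2. In the pair of mice closest in age, nTKO 2 and nDKO 1, Efna4 differed by -1.05, Ephb3 by -0.87, Epha1 by -0.96, Epha2 by -0.90 and Efna1 by 0.61. The difference farthest from 0 in this pair was that of Efna3, at -1.28, and Ephb4 differed by 0.43. These mice also differed in squamous list medians, at 5.46 in nTKO 2 and 10.85 in nDKO 1. Arrays nTKO 1 and nDKO 1, from the oldest mice of their genotypes, had the highest squamous medians. Within each genotype, age and this marker pattern therefore cannot be told apart, which limits the fit with the age covariate. In the pair of like age, genotype and this marker pattern cannot be told apart. With log2 age as a covariate Efna4, Ephb3, Epha1, Epha2 and Efna1 gave -0.94, -0.77, -0.84, -0.78 and 0.60, Efna3 gave -1.32 and Ephb4 0.43, where all 5 mice without the covariate gave 0.03 and 0.01 for Efna3 and Ephb4. Without both nTKO 1 and nDKO 1 the differences were -0.67 for Efna4, -0.29 for Ephb3, -0.18 for Epha1, -0.06 for Epha2 and 0.65 for Efna1. Efna3 gave -0.48 and Ephb4 0.12 without these 2 mice.

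**Figure D5:**
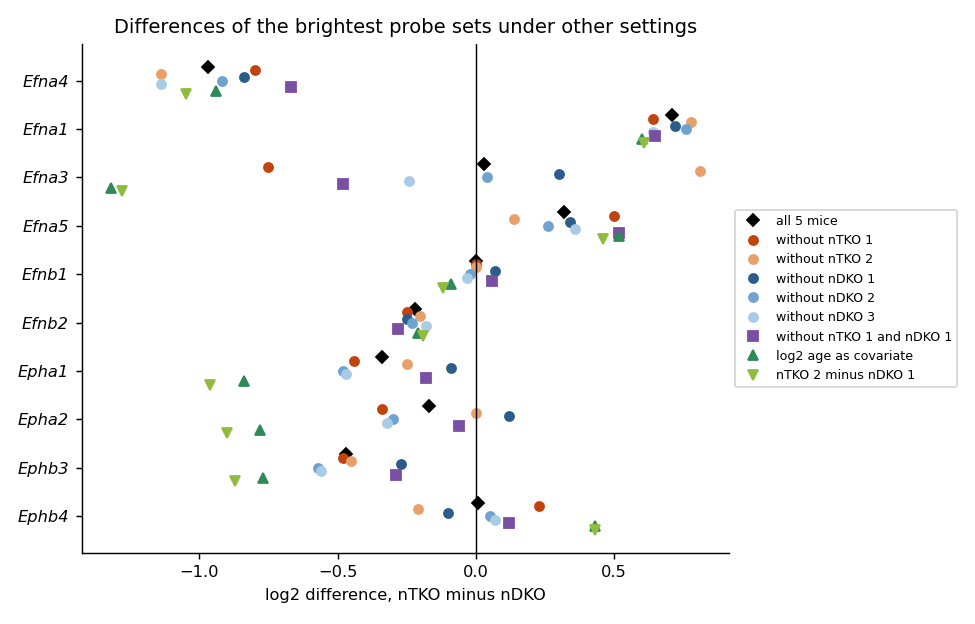
Difference in log2 signal, nTKO minus nDKO (x axis), of the brightest probe set of each gene with all 5 mice, with mice left out, with age (log2) in the model, and in the pair closest in age. Efna4 stays between -1.14 and -0.67 and Efna1 between 0.60 and 0.78 in all settings drawn, and Efna3 runs between -1.32 and 0.81.

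The genes whose pattern over the 5 mice was closest to that of Efna4, by the root mean square distance between values centred on each gene's mean, were Smim5 (0.173), Ecm1 (0.18), Pcolce (0.189), S100a14 (0.199) and Cmbl (0.202). Ecm1, an extracellular matrix protein, measured 9.40 and 9.23 in nTKO cells and 10.37, 10.24 and 9.97 in nDKO cells. S100a14, a calcium-binding protein of epithelia, measured 9.32 and 9.18 in nTKO cells and 10.36, 9.96 and 9.73 in nDKO cells. Of these 5 genes, Ecm1 and S100a14 are also on chromosome 3. No share of all genes on that chromosome is given beside this, so nothing is read from it. The genes closest to Efna3, the member with the widest range, were the sodium channel subunit Scnn1g (0.143), Sdr16c6 (0.152), Gas1 (0.171), the gap junction protein Gja1 (0.183) and Car13 (0.191), which is on chromosome 3 too. Scnn1g measured 7.46 and 5.79 in nTKO cells and 7.39, 6.61 and 6.33 in nDKO cells, so it too was high in nTKO 1 and nDKO 1. With 5 mice and 18193 genes such lists describe these arrays only.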

How the data were processed

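Each deposited value is the log2 signal of 1 probe set on 1 array. The authors made it with RMA and the Transcriptome Analysis Console, per the submitters' processing notes, in versions not stated there. In RMA the background is subtracted, arrays are quantile-normalized and probes are summarised, so changes shared by most genes are lost and dim probe sets lie near a floor. The number of arrays limits the precision.

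The comparison of nTKO with nDKO used limma 3.58.1 under R 4.3.3 (lmFit, then eBayes with trend, no covariate) on all 45037 probe sets, two-sided, with Benjamini-Hochberg adjustment over all of them and a threshold of 0.05. The fit was tested on simulated data. Standard errors are those of this fit. A gene in a list is represented by its probe set with the highest mean (18193 genes). Members and lists were chosen with earlier results of these data known, as were the markers. The text names all members, up to 4 genes by size of difference in each of the family, partner and neighbour lists (25 genes on each side of Pygo2), some genes of these lists whose genotypes do not overlap, and the 5 genes closest in pattern to Efna4 and to the member of widest range. Adam15, Shc1, Adam10 and Epha4 were singled out after their values were seen, and so were the 4 promoters printed. Alternatives were a filter at the median level, 1 probe set per gene, quantile normalization, median centring, other eBayes settings, log2 age, a replicate block, and leaving out mice. Some items are not reported here.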

Additional observations from a re-analysis of the deposited data

How the results depend on the processing

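Calls over the whole table stayed at 0 in all 14 alternative fits. The members' counts of non-overlapping genotypes (2 higher, 4 lower) ran from 3 to 5 higher (10.2% to 30.7% of all probe sets) and from 4 to 9 lower (7.13% to 19.5%) with 1 mouse left out, and were 6 and 9 without both nTKO 1 and nDKO 1, where fewer mice make separation easier (25.9% and 28.1% of all probe sets). After quantile normalization 6 were lower (10.7% of all probe sets, against 5.17% without it), and neither count can be had with the age covariate or the block. Replicate numbers name separate mice in the labels, and only numbers 1 and 2 occur in both genotypes. Deviations from the group means correlated by 0.377 for the mice numbered 1 and 0.311 for those numbered 2, and by 0.244 for nTKO 2 and nDKO 3, which share no number. With 2 nTKO mice, whose deviations mirror each other, each value recurs with the opposite sign in another pair. The replicate block gave 0 calls and 2294 unadjusted p under 0.05, against 1710 without it, and Efna4 at -1.14. Of 20 member probe sets, 10 kept their sign in all alternatives, among them Efna4, both of Efna1, the brightest of Efna5, Efnb2 and Epha1, and Ephb3. The alternatives reuse the same mice, the members were picked with these differences known, and no share over all probe sets is given. Nothing is therefore read from this count. Of 286 recomputed member differences, 37 moved by more than the spread between mice (1 pooled SD). The fit has 3 residual degrees of freedom, exact permutation of the genotypes over mice allows no p under 0.1 for 1 gene, and probe sets below the array median may not respond.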
